A study of Mus musculus with 3 samples.

Results

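Aminoacyl-tRNA synthetases load each transfer RNA with its amino acid. Of 36 synthetase genes sought by symbol, 35 had at least 1 probe set annotated to that gene alone, out of 18193 genes represented in that way on the arrays. They comprised 19 of the 20 cytosolic enzymes and all 16 mitochondrial enzymes, whose symbols end in 2. Dars was not analysed here. Each gene was read from the brightest of its probe sets by the mean of the 3 arrays. That mean holds 2 arrays of the high fat diet and 1 of the normal diet, so it can favour probe sets brighter in the former. The arrays carried RNA of memory phenotype CD4 T cells, the helper T cells that bear the surface phenotype of earlier activation, sorted from BALB/c spleens to above 99% purity. The high fat diet (HFD) group had 2 arrays, from mice kept for 10 weeks on food with 60 kcal% fat, and the normal diet (ND) group had 1 array, from mice kept on normal food for as long. By their labels both groups shared strain, tissue, cell sort and labelling, while the sex and age of the mice and whether an array held 1 mouse or a pool are not stated in the labels. Every p-value below takes its spread from the 2 HFD arrays, moderated by that of other genes, and this spread may be technical. The 1 ND array adds nothing to it.

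Eukaryotic cells carry separate sets of synthetases for the cytosol, where nuclear messages are translated, and for mitochondria, where the few proteins of the mitochondrial genome are made. Gars and Kars each encode the enzyme of both compartments, and Eprs encodes a single cytosolic protein that charges both glutamate and proline tRNA. Part of the cytosolic enzymes sit in the multisynthetase complex, held together by the scaffold proteins Aimp1, Aimp2 and Eef1e1. In mouse cells short of amino acids the transcription factor ATF4 is known to raise many cytosolic synthetase genes through promoter elements called C/EBP-ATF response elements (CARE), and activated T cells are known to increase amino acid uptake and protein synthesis.

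The deposited values are linear intensities whose trimmed mean was 500.0 on every array, with array medians of 69.7 and 67.4 in HFD and 78.3 in ND. On the log2(intensity + 17.7) scale used for all differences below, which understates changes of dim genes, the median of 10341 genes tested lay at -0.15 in HFD relative to ND. The median absolute difference per gene was 0.394 and 0.452 between each HFD array and ND, against 0.126 between the HFD arrays. The CD4 T cell markers, 7 of 7 measured, summed to 63378 to 65100 in HFD and 77712 in ND, and 6 of 7 were lower on both HFD arrays. Cd4 itself read 609 and 377 in HFD and 911 in ND, and Cd44, which marks earlier activation, read 5623 and 5700 in HFD and 9761 in ND. Markers of other cells summed to 1975 to 2227 in HFD and 506 in ND for B and plasma cells (6 of 7 measured, 3 higher and 3 lower on both HFD arrays, carried by Ms4a1), and to 988 to 1067 in HFD and 2319 in ND for myeloid and dendritic cells (7 of 7 measured, 6 lower on both HFD arrays). For CD8 T and NK cells they summed to 2152 to 2288 in HFD and 2734 in ND (4 of 5 measured), where 3 were higher on both HFD arrays and Klrd1 alone was lower. Cd8a read 177 and 230 in HFD and 99.0 in ND. For erythroid cells the sum was 126 to 151 in HFD and 207 in ND (3 of 5 measured), carried by Slc4a1. Their defining marker Alas2 read 2.09 and 5.71 in HFD and 14.1 in ND. These Alas2 values all lie under the offset of 17.7 and give no direction. H2-Ea, a class II histocompatibility gene of B cells and other antigen-presenting cells that BALB/c mice transcribe and C57BL/6 mice do not, read 536 and 602 in HFD and 11.5 in ND. The B cell gene Ms4a1 moved with it, at 1612 and 1837 in HFD and 56.8 in ND. Of the other B and plasma cell genes, Cd79a and Ebf1 were also higher on both HFD arrays, at dim values of at most 51.2. Cd79b (190 and 168 in HFD, 219 in ND), Jchain and Sdc1 were lower on both HFD arrays. A difference in strain and one in cells of another type cannot be told apart at H2-Ea. The part of these differences in the results below was not tested, and with 1 ND array diet cannot be told apart from strain, handling or array. In bulk samples, fewer cells of a type and less RNA per cell cannot be told apart.

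The cytosolic synthetases were higher in HFD almost throughout. Of 19 tested, 18 rose and 0 fell (94.7% higher, against 20.5% of all genes tested called higher and 29.2% called lower; limma's moderated test, Benjamini-Hochberg adjusted p under 0.05). Their median log2 difference was 1.04, or 2.05-fold, beside -0.15 for all genes. By a rule of size that needs no test, 10 of 19 were at least 2-fold higher on both HFD arrays, against 6.0% of all genes. In these 18 genes neither HFD array overlapped ND, against 35.8% of all genes with both HFD arrays above ND. The ND array has no replicate, so its spread was taken to be like that of the HFD arrays, and these counts do not test whether the cytosolic synthetases stand apart from other genes. HFD 2 read above HFD 1 in 19 of 19 genes, against 50.6% of all genes.

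**Figure D1:**
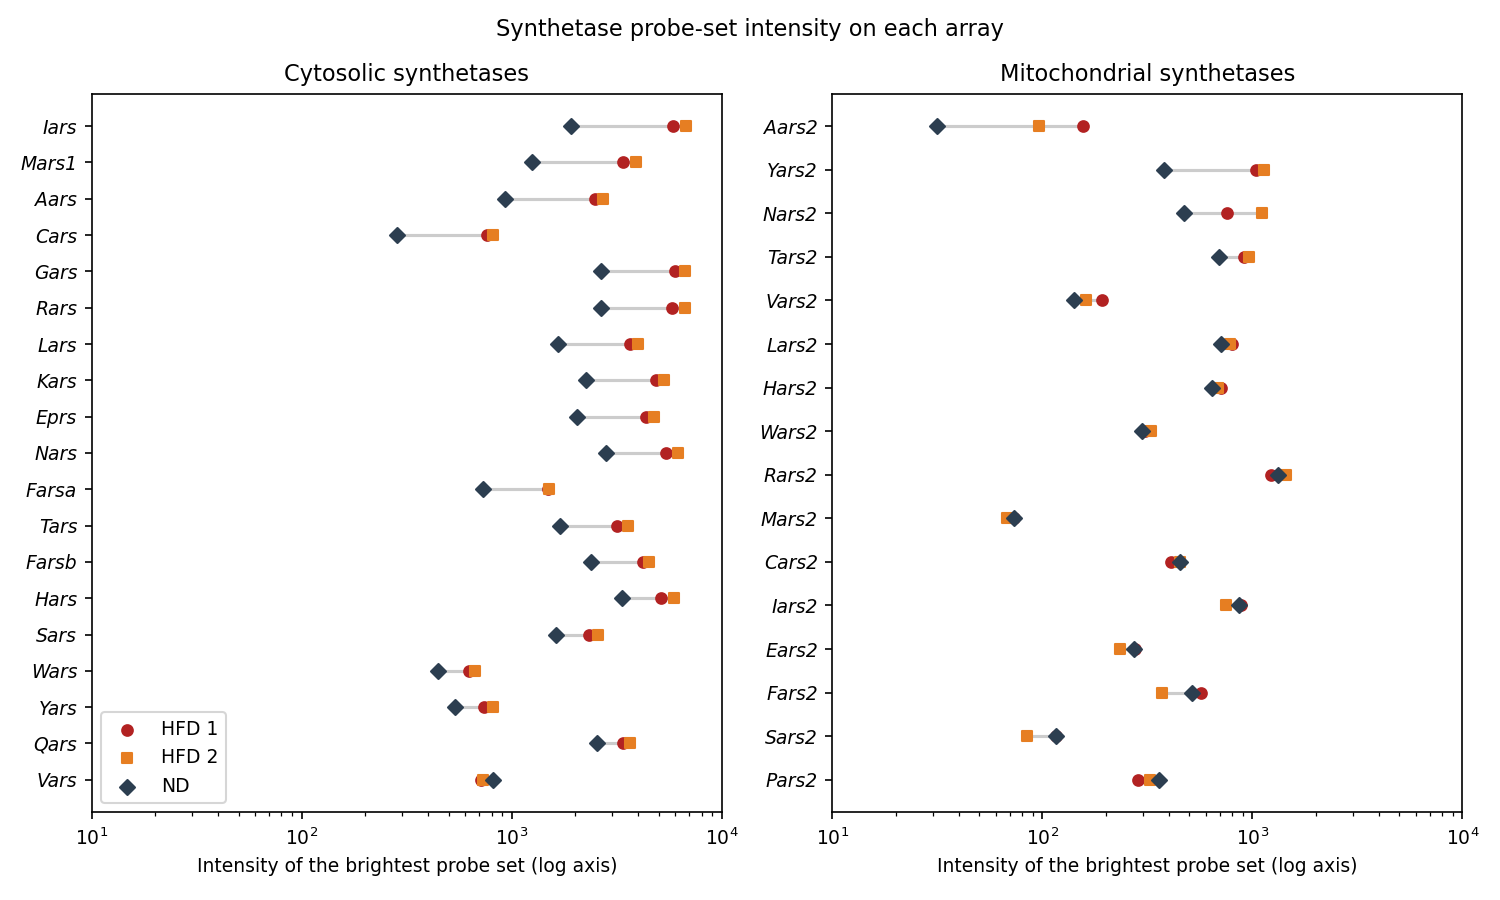
Intensity of the brightest probe set of each synthetase (log axis) on HFD 1, HFD 2 and ND, with cytosolic genes at left and mitochondrial genes at right, each panel sorted by the mean log2 difference and grey lines spanning the arrays. In 18 of 19 cytosolic genes both HFD arrays lie right of ND, while most mitochondrial genes have their arrays close together; intensities of different genes are not comparable with each other.

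Iars, the isoleucine enzyme, showed the largest cytosolic change. It read 5874 and 6770 on the HFD arrays and 1921 on the ND array, 3.26-fold higher in HFD (log2 1.71 ± 0.11 SE, adjusted p = 1.5e-07). Mars1, the methionine enzyme that serves both initiator and elongator tRNA, read 3394 and 3917 in HFD and 1246 in ND (log2 1.54 ± 0.12 SE, adjusted p = 8.4e-07). Both HFD arrays stood far above ND in either gene, and the gap between the HFD arrays was 0.20 for Iars and 0.21 for Mars1 on the log2 scale. Aars, which charges alanine tRNA, read 2490 and 2711 in HFD and 931 in ND, 2.76-fold higher in HFD. Cars, the cysteine enzyme, read 765 and 811 in HFD and 282 in ND, 2.68-fold higher in HFD. Among 10341 genes, 2.06% had a higher log2 difference (HFD minus ND) than Iars, and 3.12% a higher one than Cars.

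The genes that supply both compartments were also higher in HFD. Gars, the glycine enzyme, read 5962 and 6648 in HFD and 2656 in ND (log2 1.24 ± 0.11 SE, adjusted p = 1.5e-06). Kars, the lysine enzyme, read 4875 and 5314 in HFD and 2262 in ND (log2 1.16 ± 0.11 SE, adjusted p = 2.9e-06). The probe sets cannot say which compartment's form of Gars or Kars mRNA was measured. The bifunctional Eprs read 4349 and 4726 in HFD and 2044 in ND, 2.21-fold higher in HFD. In all 3 the HFD arrays lay close together and clear of ND. Lars, for leucine, read 3657 and 3979 in HFD and 1661 in ND, and rose 2.28-fold. Rars, for arginine, rose 2.32-fold. In these as well the HFD arrays lay close together and clear of ND.

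A second band of cytosolic genes rose by about 2-fold or less. Nars, for asparagine, and Tars, for threonine, rose 2.05-fold and 1.97-fold. The phenylalanine enzyme is built of the subunits Farsa and Farsb, which rose 2.03-fold (1486 and 1504 in HFD, 727 in ND) and 1.81-fold (4205 and 4497 in HFD, 2394 in ND). Hars, for histidine, rose by 0.72 and Sars, for serine, by 0.58 on the log2 scale. The smallest increases that passed the test were those of Wars, Yars and Qars. Wars, the tryptophan enzyme, also known as an interferon-induced gene, read 626 and 671 in HFD and 446 in ND (log2 0.52 ± 0.16 SE, adjusted p = 0.0141). Yars, the tyrosine enzyme, read 738 and 809 in HFD and 536 in ND (log2 0.51 ± 0.15 SE, adjusted p = 0.0127). Qars, the glutamine enzyme, read 3398 and 3638 in HFD and 2546 in ND (log2 0.46 ± 0.11 SE, adjusted p = 0.0041). In limma, the calls of Wars and Yars ended when dim genes were kept (adjusted p = 0.0610 and 0.0553). That of Qars ended without a variance trend (adjusted p = 0.0554) and with probe sets averaged (adjusted p = 0.883).

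Vars, the valine enzyme, was the cytosolic gene that did not follow. It read 716 and 726 in HFD and 816 in ND (log2 -0.18 ± 0.14 SE, adjusted p = 0.331 in limma). Both HFD arrays lay below ND, as they did in 54.7% of all genes, and 51.7% of all genes had a higher log2 difference, so that Vars lay near the middle of all genes. The 95% interval of its log2 difference ran from -0.49 to 0.14. The lowest estimate among the other cytosolic synthetases, 0.46 for Qars on its brightest probe set, lay above it. With probe sets averaged Qars was at -0.03, inside that interval. Vars had a single probe set, so no other reading of it was available.

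**Figure D2:**
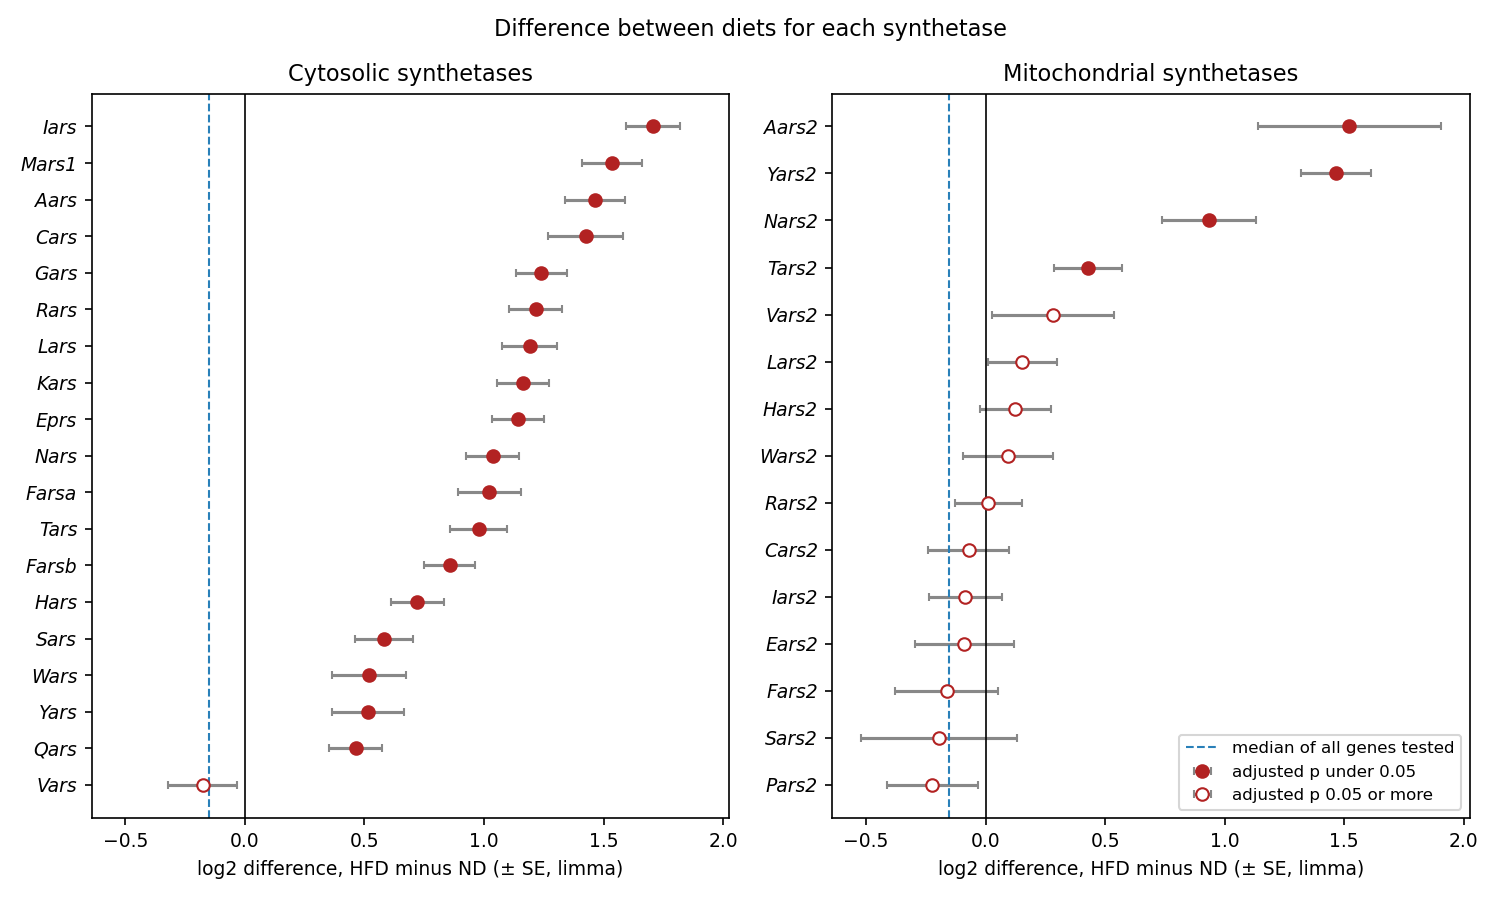
log2 difference of HFD minus ND with its SE from limma for each synthetase tested, cytosolic at left and mitochondrial at right, filled where the adjusted p was under 0.05; the dashed line is the median of all genes tested, -0.15. Of the cytosolic genes 18 of 19 are filled and lie between 0.46 and 1.71. Of the mitochondrial genes 4 of 15 are filled, among them Aars2, which passed the intensity filter only through its HFD arrays.

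Grouped by assembly, the 7 measured enzymes of the multisynthetase complex (Eprs, Iars, Kars, Lars, Mars1, Qars and Rars) all rose, with a median log2 difference of 1.19 and a range of 0.46 to 1.71. Of the 12 cytosolic synthetases outside it, 11 rose, with a median of 0.92 and a range of -0.18 to 1.46. The ranges overlap over most of their length, and the difference between these groups was not tested. The 3 scaffold genes rose as well. Of all genes tested, 20.5% were called higher and 29.2% lower. Eef1e1 read 6511 and 8239 in HFD and 1894 in ND (3.84-fold, adjusted p = 1.5e-07). Aimp2 read 3023 and 3285 in HFD and 888 in ND (3.50-fold, adjusted p = 1.8e-07). Aimp1 read 3112 and 3706 in HFD and 1548 in ND (2.18-fold, adjusted p = 1.8e-05). In each scaffold gene the HFD arrays stood above ND without overlap, and the fold of Eef1e1 and of Aimp2 exceeded that of every enzyme of the complex.

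Synthetases fall into a pair of unrelated structural classes, with different folds of the catalytic domain. Of the cytosolic class I enzymes 8 of 9 rose (median log2 difference 1.19), and of the cytosolic class II enzymes 9 of 9 rose (median 1.02), with the bifunctional Eprs, which holds a domain of each class, left out. Among the mitochondrial enzymes 1 of 8 class I and 3 of 7 class II genes rose, with medians of 0.05 and 0.12. Without Aars2, which passed the filter only through its HFD level, 2 of 6 class II genes rose and the median was -0.02. Of all genes tested, 20.5% were called higher and 29.2% lower, with a median of -0.15. The mitochondrial class I share of 12.5% was below that called higher among all genes. No test was made of a difference between the classes.

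Sorting the cytosolic genes by background knowledge of ATF4, the 12 that are commonly listed as its targets (Aars, Cars, Eprs, Gars, Iars, Lars, Mars1, Nars, Sars, Tars, Wars and Yars) all rose, with a median log2 difference of 1.17 and a range of 0.51 to 1.71. Of the other 7 tested (Farsa, Farsb, Hars, Kars, Qars, Rars and Vars), 6 rose, with a median of 0.86 and a range of -0.18 to 1.22. Among all genes tested, 20.5% were called higher and 29.2% lower. The groups overlap, since Rars and Kars rose more than Wars and Yars, and the difference between the groups was not tested.

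Promoter sequences show which of these genes carry the element through which ATF4 is known to act. RefSeq windows on GRCm38.p6, running from 250 bases before to 50 bases after the transcript start, were at hand for 12 cytosolic and 14 mitochondrial members. The search was for the CARE letters TGATGNAA, with N any base, on both strands. A match was found in 5 of 12 cytosolic genes and 0 of 14 mitochondrial genes, beside 2.60% of the 8431 tested genes with a window and 3.97% of all 32851 windows of 300 bases. All 5 are among the genes listed as ATF4 targets, of which 8 had a window, and that list rests in part on such elements, so the overlap is no independent evidence. The stretches around each match are given below, 30 bases to either side, 5′ to 3′ on the strand of the gene, with the match in capitals and the position of its first base counted from the transcript start as 0.
Aars, chr8:111033700-111033767, plus strand, match from -112: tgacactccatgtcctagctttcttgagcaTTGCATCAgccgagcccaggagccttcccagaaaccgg
Aars, chr8:111033821-111033888, plus strand, match from 9: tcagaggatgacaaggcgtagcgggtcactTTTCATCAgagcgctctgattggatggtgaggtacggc
Gars, chr6:55037941-55038008, plus strand, match from -30: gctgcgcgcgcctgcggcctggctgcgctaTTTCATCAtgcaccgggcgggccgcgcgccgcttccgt
Iars, chr13:49682107-49682174, plus strand, match from 7: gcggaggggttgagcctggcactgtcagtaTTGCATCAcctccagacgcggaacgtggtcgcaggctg
Tars, chr15:11399636-11399703, minus strand, match from -15: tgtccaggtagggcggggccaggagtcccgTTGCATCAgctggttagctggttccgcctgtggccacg
Yars, chr4:129189876-129189943, plus strand, match from 3: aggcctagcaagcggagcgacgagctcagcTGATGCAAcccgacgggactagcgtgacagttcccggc

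The matches in Aars, Gars, Iars and Tars lie in the reverse direction and that in Yars in the forward direction. Genes with a match spanned nearly the whole range of cytosolic increases, from Iars at 1.71 and Aars at 1.46 to Tars at 0.98 and Yars at 0.51 on the log2 scale. Eprs, Mars1 and Sars, listed as ATF4 targets, had no match in the window and rose by 1.14, 1.54 and 0.58. The E-box CACGTG was present in 4 of 12 cytosolic windows, 1 of 14 mitochondrial genes and 12.1% of tested genes, and CCAAT in 7 of 12, 6 of 14 and 43.1%. These matches describe the letters of the window and say nothing of what binds there.

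Most mitochondrial synthetases were not called in either direction. Of 15 tested, 4 rose (26.7%, near the 20.5% of all genes called higher). By contrast 0 fell, against 29.2% of all genes called lower. Their median log2 difference was 0.09 beside -0.15 for all genes. By the rule of size 2 of 15 (13.3%) were at least 2-fold higher on both HFD arrays, against 6.0% of all genes. Aars2 passed the intensity filter only through the HFD arrays, so that it had to differ, and with the filter applied to each diet 3 of 14 rose, 1 of them at least 2-fold, with a median of 0.05. Both HFD arrays lay above ND in 8 genes and below it in 3 (35.8% and 54.7% of all genes), and in the other 4 ND lay between the HFD arrays. Mars2, the methionine enzyme, was not tested. It read 73.2 and 68.0 in HFD and 72.8 in ND, and its mean of 71.36 fell just under the filter of 71.40, while the dimmest gene tested was Aars2 with a mean of 94.6.

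Yars2, which charges mitochondrial tyrosine tRNA, rose clearly. It read 1037 and 1134 in HFD and 381 in ND, 2.76-fold higher in HFD (log2 1.47 ± 0.15 SE, adjusted p = 5.5e-06), and its other probe set gave 1.46. Aars2, for alanine, read 157 and 95.9 in HFD and 31.4 in ND, 2.87-fold higher in HFD (log2 1.52 ± 0.38 SE). It entered the test only through its HFD arrays, so its call among the filtered genes carries no weight. The HFD arrays of Aars2 lay 0.62 apart on the log2 scale and its ND value lay under the filter of 71.4 and near the offset of 17.7. Its log2 difference was 0.93 to 1.93 with other offsets. Nars2, for asparagine, read 756 and 1111 in HFD and 471 in ND (log2 0.93 ± 0.20 SE, adjusted p = 0.0017). Tars2, for threonine, read 914 and 965 in HFD and 693 in ND (log2 0.43 ± 0.14 SE, adjusted p = 0.0233). In Yars2, Nars2 and Tars2 the HFD arrays stood above ND without overlap, as they did in 35.8% of all genes. Only the call of Yars2 held in limma when dim genes were kept, where the adjusted p was 0.0671 for Aars2, 0.0512 for Nars2 and 0.0638 for Tars2. Without a variance trend the calls of Nars2 and Tars2 also ended (adjusted p = 0.0508 and 0.0631).

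The other 11 tested mitochondrial genes did not pass the test, with log2 differences between -0.22 for Pars2, the proline enzyme, and 0.28 for Vars2, the valine enzyme. Rars2, for arginine, read 1227 and 1449 in HFD and 1323 in ND, with ND between the HFD arrays. Iars2, for isoleucine, read 883 and 746 in HFD and 862 in ND, again with ND between them. A p-value that misses the threshold does not show equal levels. The 95% intervals of these 11 genes, which hold no measured spread of the 1 ND array, all ended below the cytosolic median of 1.04. The highest upper bound was 0.83 for Vars2, and all ended below a 2-fold increase. The SE of a difference ran from 0.14 to 0.38 in the mitochondrial genes and from 0.11 to 0.16 in the cytosolic genes, so smaller changes were harder to detect among the mitochondrial ones.

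Setting the enzymes of the same amino acid side by side gave 16 pairs of tested genes over 15 amino acids, with Fars2 and Eprs each entering 2 pairs. The cytosolic gene had the larger increase on both HFD arrays in 12 pairs and the smaller one in 2, and the arrays disagreed in 2. The median gap was 0.90 on the log2 scale. Isoleucine had the widest gap, with log2 differences of 1.71 for Iars and -0.08 for Iars2. Cysteine followed, with 1.42 for Cars and -0.07 for Cars2. Alanine and asparagine were the pairs on which the arrays disagreed. The means were 1.04 for Nars and 0.93 for Nars2. They were 1.46 for Aars and 1.52 for Aars2, with a gap of -0.43 on HFD 1 and 0.31 on HFD 2. The alanine values rest on the offset and on the choice of Aars probe set, and Aars2 passed the filter only through its HFD arrays. Tyrosine and valine ran the other way, with 0.51 for Yars and 1.47 for Yars2, and with -0.18 for Vars and 0.28 for Vars2, of which neither valine gene passed the test. With probe sets averaged Vars2 was at -0.53, below Vars, so the order of the valine pair turned. The gaps themselves were not tested.

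**Figure D3:**
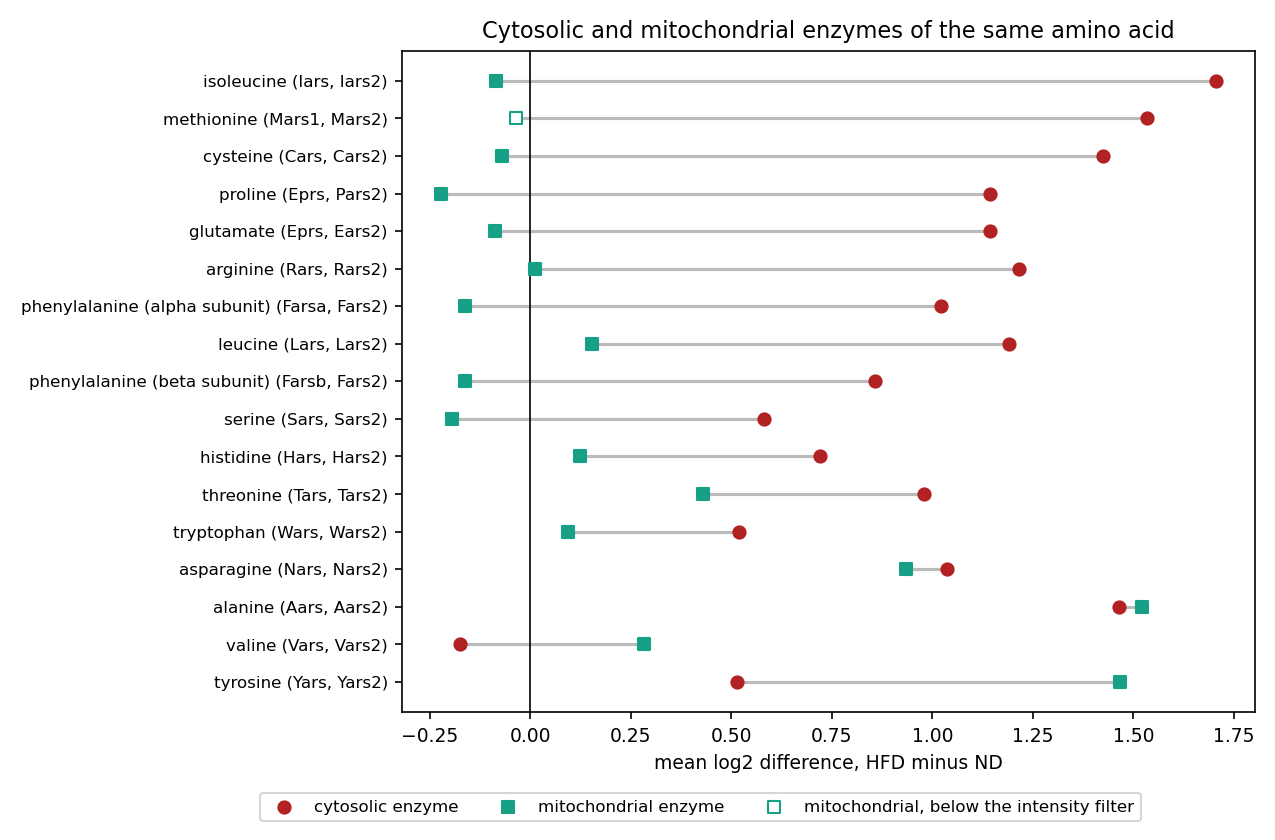
Mean log2 difference of HFD minus ND for the cytosolic (circles) and the mitochondrial (squares) enzyme of each amino acid, sorted by the gap between them, with an open square for Mars2, which lay below the intensity filter. Gaps run from 1.79 for isoleucine at the top to -0.95 for tyrosine at the bottom.

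Where a gene had further probe sets past the filter, they mostly gave the same direction among the cytosolic genes. Of 19 such probe sets in 10 cytosolic genes, 15 lay above ND on both HFD arrays and 2 below it on both, with a median log2 difference of 0.83. The other probe set gave 1.69 for Iars and 0.62 for Sars, near the brightest one, and gave more than the brightest for Nars (1.26) and Hars (1.12). Aars read less on its other probe set (0.83 against 1.46). Qars was the least settled, with 0.23, -0.83 and 0.01 on its other probe sets against 0.46 on the brightest, and its average over probe sets was -0.03 (adjusted p = 0.883 in limma). Farsb had 1 probe set of opposite sign (-0.54, against 0.86 to 1.47 on the others) and Farsa 1 with no difference (0.00, against 1.02 and 1.66).

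Among the mitochondrial genes 9 further probe sets passed the filter, 4 above ND and 5 below it on both HFD arrays, with a median of -0.25. Fars2, the phenylalanine enzyme, read 571 and 371 in HFD and 518 in ND on its brightest probe set, where ND lay between the HFD arrays, but its other probe set gave -1.09, and the average over both was called lower (log2 -0.63, adjusted p = 0.0251 in limma). Vars2 gave 0.28 on the brightest probe set and -1.34 on the other, where the HFD arrays read 188 and 32.1 and ND 239. Iars2 and Ears2 likewise gave -0.90 and -0.58 on their other probe sets, further below ND than on the brightest.

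**Figure D4:**
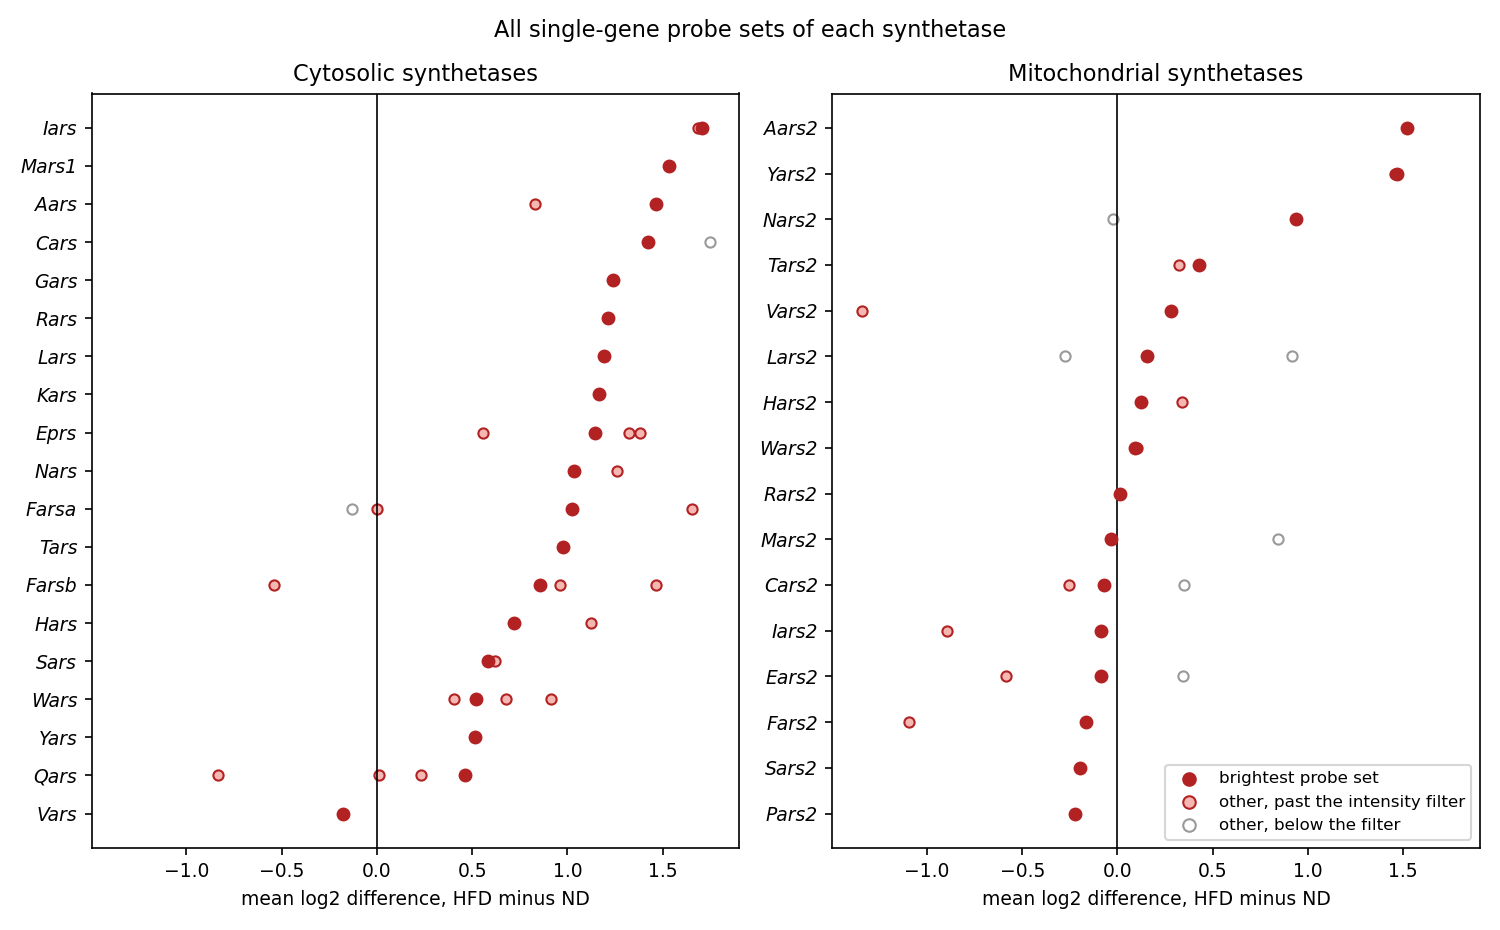
Mean log2 difference of HFD minus ND for all 72 single-gene probe sets of the synthetases, cytosolic at left and mitochondrial at right, filled dark for the brightest probe set of a gene (for Mars2 this one lies below the filter), light for others past the intensity filter and open for those below it. Most cytosolic points lie right of 0, with Qars, Farsa and Farsb spread on both sides or at 0, and mitochondrial points lie on both sides.

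Genes that act around the synthetases were also compared. Of 21 tested genes of ATF4 and the amino acid response, 12 rose and 2 fell, with a median log2 difference of 0.86. Cth, Gpt2 and Chac1 passed the filter only through the HFD arrays. With the filter applied to each diet 9 of 18 rose and 2 fell, with a median of 0.49. Asns, which makes asparagine, read 1213 and 1333 in HFD and 162 in ND (7.19-fold). Shmt2, the mitochondrial serine hydroxymethyltransferase, rose 4.62-fold and Psat1, of serine synthesis, 3.93-fold. The probe sets of Shmt2 past the filter ranged from 0.90 to 2.21 on the log2 scale. Cth, which makes cysteine, read 157 and 167 in HFD and 0.672 in ND, a value under the offset, so its fold is not given. Atf4 itself, chosen after its values were seen, read 6515 and 6794 in HFD and 5678 in ND (log2 0.23 ± 0.09 SE, adjusted p = 0.0606 in limma), and the ATF4 partner and target Ddit3, chosen likewise, read 469 and 560 in HFD and 640 in ND (adjusted p = 0.140). Cebpb, a transcription factor of the list, and Ddit4, an inhibitor of mTOR signalling, were the genes that fell, 1.96-fold and 1.28-fold, and were also chosen after their values were seen. With the filter applied to each diet, 50% of the list was called higher and 11.1% lower, against 20.6% and 29.9% of all genes.

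Of 15 tested genes of the eIF2 pathway, which sets how readily translation starts, 7 were higher and 4 lower. Their median log2 difference was 0.02. The shares were 46.7% higher and 26.7% lower, against 20.5% and 29.2% of all genes, so the share lower was near that of all genes. Eif2b3, a subunit of the eIF2 exchange factor, rose 4.10-fold (1496 and 1835 in HFD, 390 in ND) and Eif2b5, its catalytic subunit, 2.11-fold. Eif2s2, the beta subunit of eIF2, rose 2.29-fold on its brightest probe set, while its probe sets past the filter ranged from -0.40 to 1.66. Impact, an inhibitor of the amino acid sensing kinase GCN2, fell 2.17-fold (997 and 799 in HFD, 1958 in ND). Its probe sets past the filter ranged from -1.12 to -0.22 on the log2 scale. Eif2ak4, which encodes GCN2, was chosen after its values were seen. It read 346 and 433 in HFD and 392 in ND, with ND between the HFD arrays.

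Of 11 amino acid transporters tested, 4 rose and 2 fell (36.4% and 18.2%, against 20.5% and 29.2% of all genes). Their median log2 difference was 0.08. Slc7a5, the light chain of the large neutral amino acid transporter that brings in leucine and isoleucine, read 2584 and 3499 in HFD and 374 in ND (7.72-fold, adjusted p = 3.6e-08 in limma). Slc7a1, an importer of arginine and lysine, rose 2.18-fold. The lysosomal carriers Slc36a1 and Slc38a9 fell 1.67-fold and 1.42-fold. The probe sets of Slc38a9 past the filter ranged from -0.53 to -0.11 on the log2 scale. The largest increase in this list was far above the others, so its median does not describe Slc7a5.

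Partners of the mitochondrial synthetases were also read. Of 13 tested genes of mitochondrial translation, 6 rose and 0 fell (46.2% higher, against 20.5% of all genes higher and 29.2% lower). Their median log2 difference was 0.20. The elongation factors Gfm1 and Tsfm rose 2.34-fold and 2.25-fold. The ribosome recycling factor Mrrf rose 2.10-fold, and Trnt1, which adds the CCA end to tRNAs of both compartments, 1.88-fold. The probe sets of Gfm1 past the filter ranged from 0.61 to 1.23 on the log2 scale. Mitochondria charge glutamine tRNA through an amidotransferase in place of a glutaminyl-tRNA synthetase. Its subunits were chosen after their values were seen. Gatc rose 1.43-fold (421 and 424 in HFD, 291 in ND), whereas Qrsl1 read 1305 and 1377 in HFD and 1294 in ND and Gatb 150 and 153 in HFD and 187 in ND, neither past the test.

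Of 9 tested genes of tRNA proofreading, maturation and export, 6 rose and 0 fell. Nsun2, a tRNA cytosine methyltransferase, read 8009 and 8770 in HFD and 2528 in ND (3.30-fold). Elac2, which trims tRNA ends, rose 2.05-fold and Xpot, the tRNA exporter, 1.64-fold. Ssb, which binds new tRNA transcripts, rose 1.45-fold, with its probe sets ranging from -0.14 to 0.63. Of 6 tested genes of cytosolic elongation, 5 rose and 0 fell. Eif5a rose 1.85-fold and Eef1d, a subunit of the exchange factor of elongation factor 1, 1.69-fold, with other probe sets of up to 1.70 and 1.55 on the log2 scale, while Eef1a1, the gene not called, which delivers charged tRNA to the ribosome, read 44085 and 44064 in HFD and 41235 in ND (adjusted p = 0.191 in limma). All calls in these lists are limma's at an adjusted p under 0.05 over all genes, against 20.5% of genes called higher and 29.2% called lower.

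**Figure D5:**
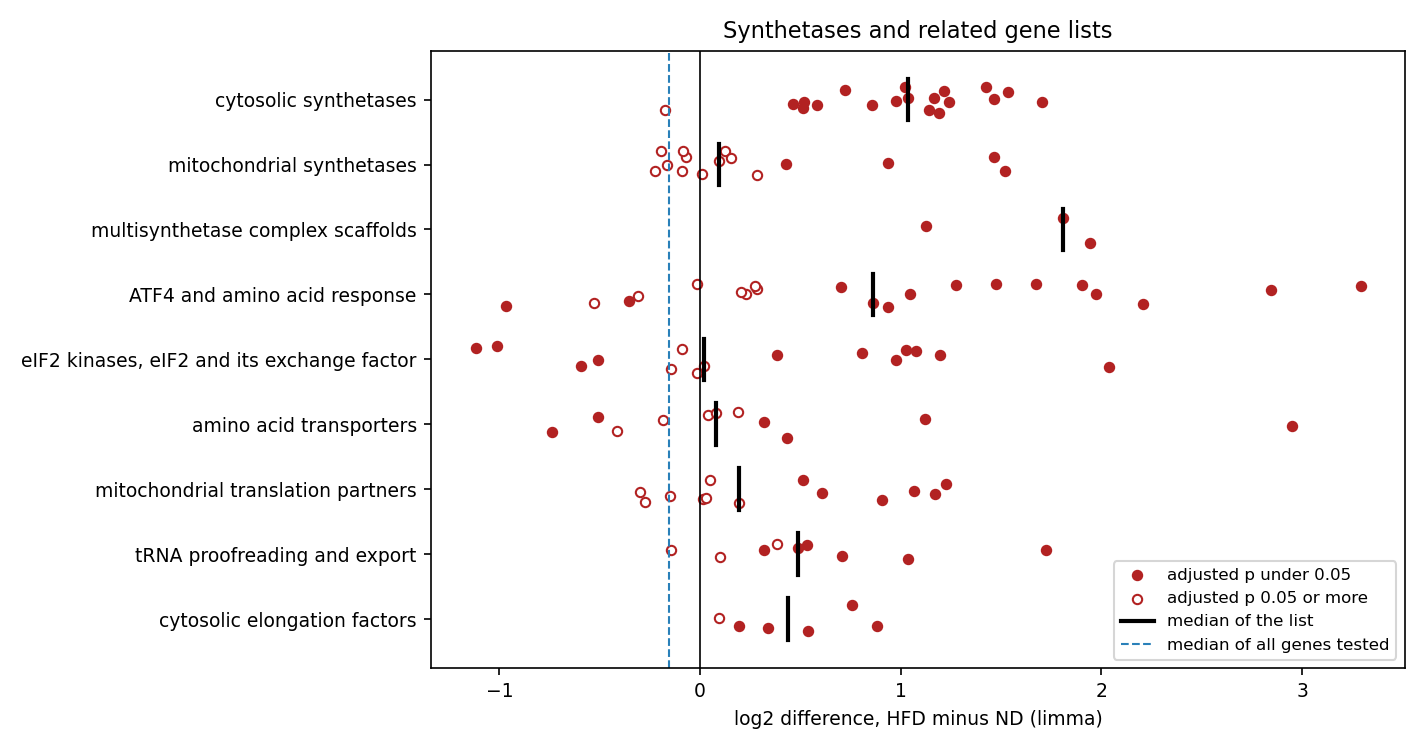
log2 difference of HFD minus ND for each tested gene of the synthetase lists and the related lists (vertical spread within a list is only for legibility), filled where the adjusted p was under 0.05, with black bars for list medians and the dashed line for all genes tested. The cytosolic synthetase median is 1.04, that of the 3 scaffold genes 1.81 and that of the mitochondrial synthetases 0.09.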

How the data were processed

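The deposited values are linear intensity per probe set, 1 column per array. GCOS, Affymetrix's array software, is named per the submitters' processing notes, and per the labels' protocols biotin was built into the RNA. Algorithm, background correction and version: not given in the sources used here. With the top and bottom 2% of probe sets dropped, every array has a mean of 500.0. No detection calls were used, so dim values cannot be told from background. Precision is limited by the number of arrays.

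Among 45101 probe sets there were 64 controls, and 34945 had 1 gene symbol, 932 several and 9160 none. Symbols come from the platform annotation and were checked by Entrez identifier against RefSeq GRCm38.p6 (35 of 35 members matched). Genes entered where their brightest probe set had a mean above 71.4, the median of all probe sets, leaving 10341. An offset of 17.65, at percentile 25 of all values, was added before log2. The difference of HFD minus ND was tested two-sided in limma 3.58.1 (R 4.3.3; lmFit, then eBayes with a variance trend), and p-values were adjusted by Benjamini-Hochberg across those 10341 genes. The residual has 1 degree of freedom, moderated with 11.69 prior degrees of freedom. The 95% intervals use the moderated SE.

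The model was tested on simulated data (the HFD minus ND contrast, 10341 genes of which 200 were changed) and recovered 97.1% of changes of 1 and 100% of changes of 2 on the log2 scale and called 7 unchanged genes. Simulated arrays of both diets shared 1 spread, so the simulation does not check that assumption. The simulated spread followed intensity alone, without further variation between genes. Far fewer genes were changed than were called in the data (2117 higher and 3015 lower), so these rates describe only that simpler setting.

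Members, lists and tests were chosen with earlier results of these data known. Array values are given for the members with the largest smaller difference over both HFD arrays, for those against their compartment's direction, for those whose call or direction changed under an alternative or whose probe sets differed in sign, and for Gars, Kars, Eprs, Wars and the scaffold genes, with up to 4 genes from each related list. Related genes outside this rule were named after their values were seen. The filter on each diet was added after seeing the data. Tables and figures used pandas 2.3.3, numpy 2.4.6, scipy 1.17.1 and matplotlib 3.10.9 in Python 3.11.15.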

Additional observations from a re-analysis of the deposited data

How the results depend on the processing

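Of the 18 cytosolic synthetases called higher, 16 to 18 remained under each of 11 alternatives: 16 with no filter on low values, 17 when probe sets were averaged, 17 without a variance trend and 18 in the other 8, among them leaving out _s_at and _x_at probe sets and applying the filter to each diet, both chosen after seeing the data. Their median log2 difference was 1.01 and 1.13 when either HFD array was left out, and 10 to 12 were at least 2-fold higher. The mitochondrial synthetases rested more on the settings. The count called higher was 1 with no filter and 2 without a variance trend, against 4, and 1 gene (Fars2) was called lower when probe sets were averaged. Their median was 0.24 under quantile normalization, 0.16 with arrays centred, 0.081 with the offset at the median, 0.10 with an offset of 1, 0.053 when dim genes were kept, 0.14 under a stricter filter at percentile 75 (8 genes tested), 0.012 with probe sets averaged, 0.053 with the filter applied to each diet (14 genes tested), and 0.13 to 0.14 without either HFD array. The count at least 2-fold higher was 1 with the offset at the median and 1 with the stricter filter or the filter on each diet, against 2, and 2 to 3 without either HFD array. The median of all genes was -0.08 under quantile normalization and -0.09 with arrays centred. Of all genes, 1922 were called lower when dim genes were kept, against 3015.

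Among single members the sign turned for Qars (-0.031) and Vars2 (-0.53) with probe sets averaged, and for Cars2 (0.060), Ears2 (0.082) and Iars2 (0.013) under quantile normalization. Without HFD 2, and with no test, the differences of Fars2 (0.14), Ears2 (0.024), Iars2 (0.034) and Rars2 (-0.11), none of them called, also changed sign. In each case the cause was not tested. No paired analysis was possible because the ND group holds 1 array and its label has no replicate number. With 1 ND array, leaving it out was not possible.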

Other observations

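The cytosolic synthetases also differed in a common direction between the HFD arrays. HFD 2 read above HFD 1 in all 19 genes tested, by 0.02 to 0.21 on the log2 scale (median 0.12), against 50.6% of all genes. The count was 19 under quantile normalization (53.6% of all genes), 19 with arrays centred (57.9%), 18 without _s_at and _x_at probe sets and 17 with probe sets averaged. Among the mitochondrial genes tested it was 7 of 15, with differences of -0.62 to 0.54. Vars, which was not called between the diets, read 716 on HFD 1 and 726 on HFD 2, and Farsa had the smallest gap, with 1486 and 1504. The gap between the HFD arrays was small beside that to ND in most genes, the median cytosolic difference to ND being 1.01 for HFD 1 and 1.13 for HFD 2. Replicates of a group have no order, and these values carry no test.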
